A study of Mus musculus with 202 samples.

Results

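The 10 genes described here set or oppose the epithelial state, and were followed in single pancreatic cancer cells: Snai1, Snai2, Zeb1, Zeb2, Twist1, Prrx1, Elf3, Ehf, Grhl2 and Esrp2. They were chosen by name, and all 10 have a row among the 28987 genes of the deposited table. The cells come from a mouse pancreatic ductal adenocarcinoma line with the strain label KPC, from a male animal and a liver metastasis. All cells were grown in culture with no labelled treatment that differs between the groups, detached with trypsin, stained with an antibody to E-cadherin and sorted into a positive fraction (Ecad+) and a negative fraction (Ecad-). E-cadherin is the epithelial adhesion protein that Cdh1 encodes. After the averaging of 5 pairs of near-identical libraries, 100 Ecad+ and 97 Ecad- cells were compared. All come from 1 line, so each sorted fraction is 1 sample, cells are not replicates, and no test between the fractions was made.

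The first 6 genes are known inducers of the epithelial-mesenchymal transition, in which epithelial cells lose their junctions and gain motility. Snai1, Snai2, Zeb1 and Zeb2 encode zinc finger repressors that bind E-box motifs such as CACCTG, among them those of the Cdh1 promoter. Twist1 encodes a basic helix-loop-helix factor and Prrx1 a homeobox factor. The other 4 genes belong to the epithelial state: Elf3 and Ehf encode ETS family factors, Grhl2 a grainyhead factor that activates junction genes, and Esrp2 a splicing regulator that keeps the epithelial isoforms of its target transcripts.

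Snai1 and Snai2 are paralogs, and the results below differ widely between them, so the first 60 coding bases of both are shown to let their similarity be seen. They are read from GENCODE M21 transcripts on build GRCm38 (mm10), from Snai1 at chr2:167538290-167538349 and Snai2 at chr16:14705974-14706033, both on the plus strand. Capitals mark the 12 positions that differ, and the other 48 are the same.
Snai1: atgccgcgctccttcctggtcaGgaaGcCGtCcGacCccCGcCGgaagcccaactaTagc
Snai2: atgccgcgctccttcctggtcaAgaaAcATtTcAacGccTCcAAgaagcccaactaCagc
Over the whole coding sequences, 792 bases in Snai1 and 807 in Snai2, 65.6% of 762 aligned positions were identical. Their transcripts shared 0 stretches of 31 bases, the default word length by which kallisto assigns reads, although the length used for these files is not given in the sources read. The upstream region of Elf3 is shown because Elf3 ran against Snai2 and Zeb1 over all Ecad+ cells pooled, as described below. It covers chr1:135258569-135258722 on the minus strand, RefSeq promoter window on GRCm38.p6, from 250 to 97 bases before the start site. Capitals mark the E-box CACCTG, 140 bases before the start.
Elf3: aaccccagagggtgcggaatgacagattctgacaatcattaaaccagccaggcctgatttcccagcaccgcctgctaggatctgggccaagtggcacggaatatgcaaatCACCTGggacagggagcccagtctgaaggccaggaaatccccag
CACCTG and its reverse complement CAGGTG were searched over the 250 bases before each start, which covers both strands. Of 5 genes with a window in that table, Elf3 and Snai1 held a match and Twist1, Prrx1 and Zeb2 held none, against 17.2% of all 32851 windows. A match describes the letters only.

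Values are in TPM, the transcript abundance unit that adds up to the same total in each library. They are scaled by transcript length, so levels can be set side by side between genes. In Ecad+ cells Elf3 had the highest mean level of the 10 genes, at 27.6 TPM, followed by Ehf at 7.66, Twist1 at 4.92, Esrp2 at 4.86, Zeb1 at 4.20 and Snai2 at 3.51 TPM. The last 4 lay well within each other's spread over cells. Zeb2 averaged 0.599 TPM, and Prrx1, Grhl2 and Snai1 stayed under 0.2 TPM. In Ecad- cells Elf3 was again first at 26.9 TPM, Snai2 came second at 22.4 TPM, and Esrp2, at 1.69 TPM, stood below Zeb1 as well as Twist1. A floor of 1 TPM in mean level, with detection above 0 in 10% of cells, was passed by 7 of the genes, and Snai1, Prrx1 and Grhl2 did not.

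**Figure D1:**
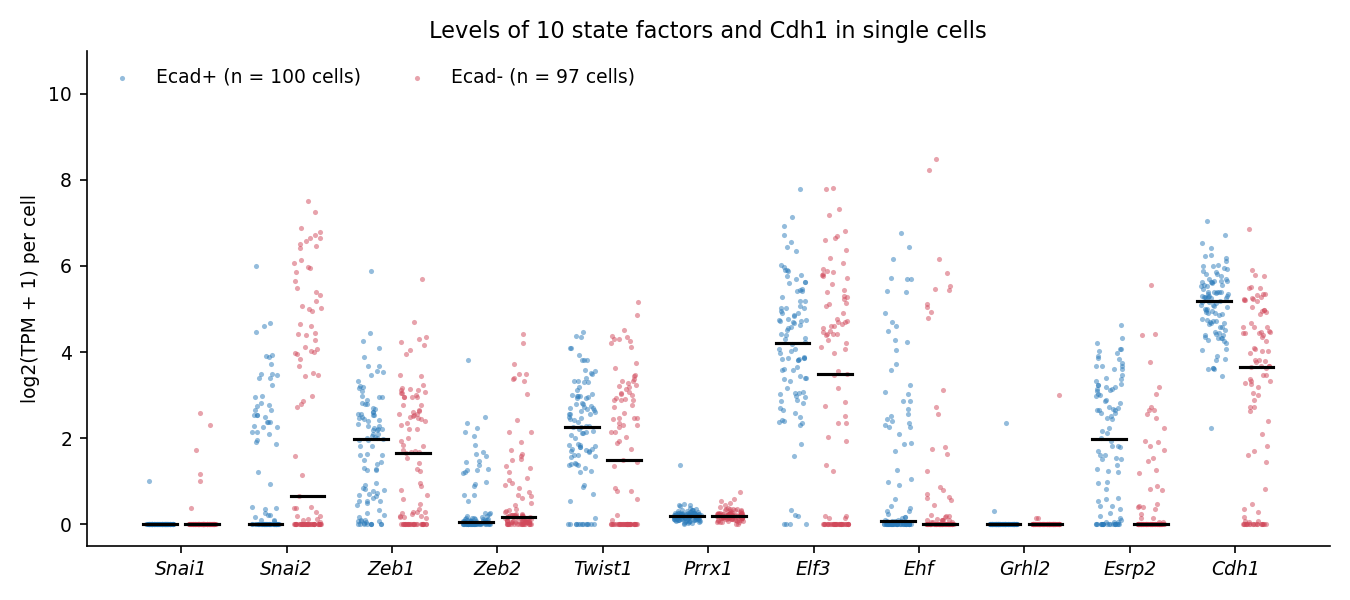
Each point is 1 cell, with its level as log2(TPM + 1) on the vertical axis, for the 10 genes and Cdh1 in Ecad+ (blue) and Ecad- (red) cells, and black bars are medians. Snai2 reaches 181 TPM in Ecad- cells against 62.6 TPM in Ecad+ cells, and the Ecad- median of Esrp2 lies at 0.

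The fractions differed by 2-fold or more in mean level for only 2 of the 7 genes above the floor. Snai2 was higher and Esrp2 was lower in Ecad- cells, while Zeb1, Twist1 and Elf3 had means within 0.04 of each other on the log2 scale. Over all 10730 genes above the floor, 13.4% were higher by 2-fold and 3.86% were lower. The median gene was 0.27 higher on the log2 scale in Ecad- cells, so 1 higher gene of 7 is near the general rate, and the single lower gene of 7 stands beside the 3.86%. All such ratios are log2 of the Ecad- mean plus 1 TPM over the Ecad+ mean plus 1 TPM, which understates the difference of low genes.

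The 2 fractions also differed as a whole. Ecad- cells had a median of 8694 genes above 0 against 10338 in Ecad+ cells. The median share of TPM from mitochondrially encoded genes was 8.78% among Ecad- and 30.0% among Ecad+ cells. This share was under 1% in 40 Ecad- cells and 1 Ecad+ cell, called low-share cells here, and values are also given without them. Among genes above the floor in the remaining cells, 4.63% were higher and 3.13% lower by 2-fold, and of the 6 members still tested Snai2 was the only one past 2-fold, with Ehf just under it at a log2 ratio of 1.00. The libraries fall into 3 sets by the suffix of their names, each with both fractions. Library numbers within a set do not overlap between the fractions, so an effect tied to that number cannot be told apart from the sort. The sort itself is visible in the transcript of its target: Cdh1 averaged 37.9 ± 21.0 TPM (SD, n = 100 cells) in Ecad+ cells and 16.1 ± 18.3 TPM (SD, n = 97 cells) in Ecad- cells. The Cdh1 transcript passed 1 TPM in all 100 Ecad+ cells, and 70 of the 97 cells sorted as negative for the protein passed it too. The log2 ratio of Cdh1 was -0.62, -1.05 and -1.96 in the library sets, and -0.91 without the low-share cells.

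Snai2, known as Slug, was the member with the largest difference in mean level. In Ecad+ cells it ranged from 0 to 62.6 TPM with a median of 0, and in Ecad- cells from 0 to 181 TPM with a median of 0.578 TPM. The ranges overlapped through their whole lower part, and the difference lay in the upper part of the Ecad- cells: the level that 10% of cells exceeded was 10.1 TPM among Ecad+ and 85.4 TPM among Ecad- cells. Means were 3.51 ± 7.83 TPM (SD, n = 100 cells) and 22.4 ± 37.2 TPM (SD, n = 97 cells), a log2 ratio of 2.38. This placed Snai2 in the top 0.96% of tested genes.

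The share of cells with Snai2 above 1 TPM had overlapping intervals. It passed 1 TPM in 38.0% of the Ecad+ fraction (exact Clopper-Pearson 95% interval 28.5% to 48.3%) and 49.5% of the Ecad- fraction (39.2% to 59.8%). Above 10 TPM the counts moved apart, with 11 of 100 Ecad+ (5.62% to 18.8%) against 40 of 97 Ecad- cells (31.3% to 51.7%). Such intervals take cells as independent draws and hold counting error alone. At 10 TPM the intervals no longer overlapped. The chromosome 16 gene (chr16:14705852-14709385, plus strand) shares 2.93% of its 31-base stretches with other genes.

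The log2 ratio of Snai2 was above 1 in each library set, at 1.26, 1.77 and 3.38. Without the low-share cells it was 1.79, with means of 3.30 and 13.9 TPM. The share above 1 TPM was then 37.4% in Ecad+ and 36.8% in Ecad- cells, while 10 of 99 and 16 of 57 cells stayed above 10 TPM.

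Snai1, the paralog, was close to absent in both fractions. A single Ecad+ cell of 100 passed 1 TPM, at 1.01 TPM, as did 5 of 97 Ecad- cells, the highest at 5.01 TPM. The exact intervals of these shares, 0.0253% to 5.45% and 1.69% to 11.6%, overlap. No 31-base stretch of Snai1 occurs in another gene.

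Zeb1 showed the same mean in both fractions. It ranged from 0 to 58.0 TPM with a median of 2.92 TPM in Ecad+ cells, and from 0 to 51.0 TPM with a median of 2.15 TPM in Ecad- cells. Both means were 4.20 TPM, with SDs of 6.81 and 6.94, and the ranges overlapped almost fully. Cells above 1 TPM numbered 64 of 100 and 53 of 97, and cells above 10 TPM numbered 9 in each fraction. The library sets disagreed in direction, with log2 ratios of -0.71, 0.40 and 0.33. The exons of Zeb1 overlap 198 bases of Gm10125 on the other strand, and this library chemistry does not mark strand, so reads there cannot be told apart. Gm10125 was higher in Ecad- cells, with means of 0.768 TPM (Ecad+) and 2.36 TPM (Ecad-), and its part in the Zeb1 values was not tested.

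Zeb2, its paralog, was lower in level. It ranged from 0 to 13.1 TPM in Ecad+ cells and from 0 to 20.3 TPM in Ecad- cells, with medians of 0.0391 and 0.128 TPM and overlapping ranges. Its means of 0.599 and 1.51 TPM gave a log2 ratio of 0.65, which was positive in all 3 sets and 0.24 without the low-share cells. It was above 0 in 66 of 100 Ecad+ and 80 of 97 Ecad- cells, mostly at low values. Only 18 of 100 and 23 of 97 cells were above 1 TPM for Zeb2. Its antisense partner Zeb2os had means of 0.0260 TPM (Ecad+) and 0.0458 TPM (Ecad-).

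Twist1 had a similar mean but was spread over fewer Ecad- cells. In Ecad+ cells it ranged from 0 to 20.9 TPM with a median of 3.80 TPM, and in Ecad- cells from 0 to 34.7 TPM with a median of 1.80 TPM. The ranges overlapped, with both more zeros and higher maxima in the Ecad- cells. Means were 4.92 ± 4.63 and 4.77 ± 6.79 TPM, a log2 ratio of -0.04 that took both signs over the sets (-0.30, 0.47 and -0.34). Cells above 1 TPM made up 82.0% of the Ecad+ fraction (73.1% to 89.0%) and 52.6% of the Ecad- fraction (42.2% to 62.8%), so this inducer was detected in more of the E-cadherin-positive cells.

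Prrx1 was not detectable as expression in either fraction. It was listed slightly above 0 in 99 of 100 Ecad+ and 95 of 97 Ecad- cells, with means of 0.159 and 0.162 TPM. Only 1 cell, an Ecad+ cell at 1.57 TPM, was above 1 TPM. Such low values in nearly every cell are why a threshold of 1 TPM is used for shares of cells here.

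**Figure D2:**
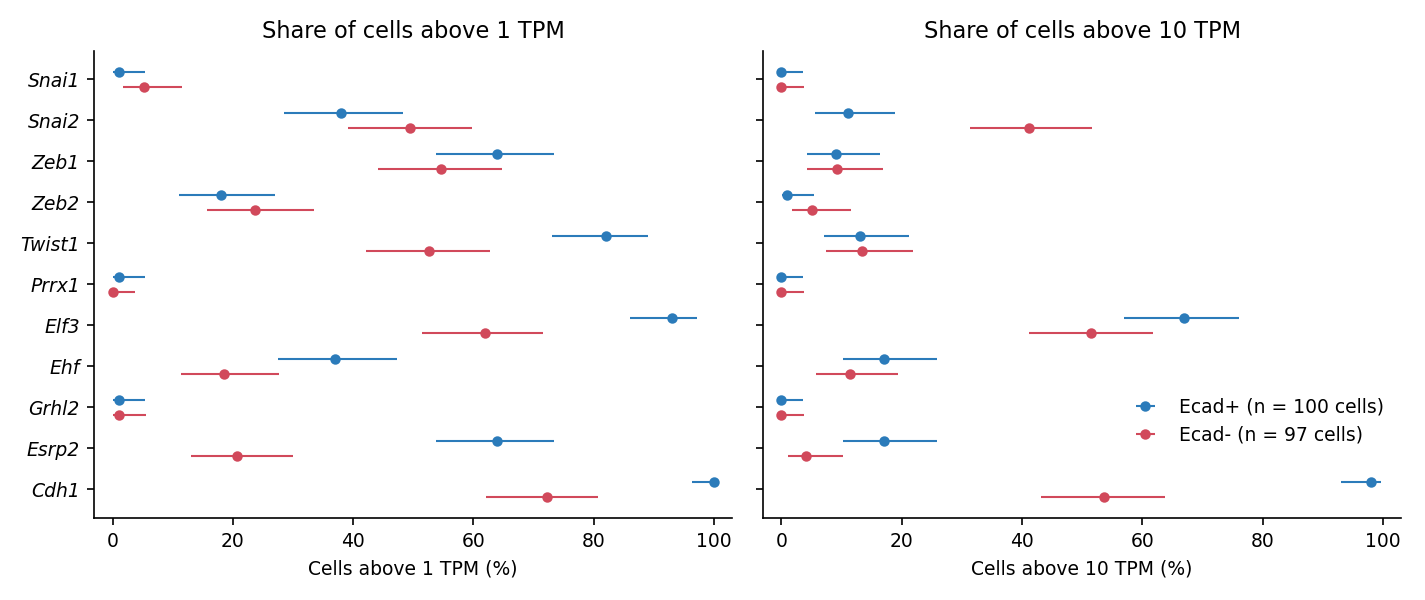
The horizontal axes give the percentage of cells above 1 TPM (left) and above 10 TPM (right) for each gene in Ecad+ (blue) and Ecad- (red) cells, with exact 95% intervals as bars. At 1 TPM the intervals of Twist1, Elf3, Esrp2 and Cdh1 lie apart with Ecad+ higher. At 10 TPM those of Cdh1 lie apart with Ecad+ higher and those of Snai2 with Ecad- higher. The Esrp2 intervals nearly touch there, with near ends at 10.23% (Ecad+) and 10.22% (Ecad-). All hold counting error over cells alone and are no test between the fractions.

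Among the epithelial factors, Esrp2 was lower in Ecad- cells in level and in share of cells. It ranged from 0 to 23.6 TPM with a median of 2.92 TPM in Ecad+ cells, and from 0 to 45.8 TPM with a median of 0 in Ecad- cells. The highest single value belonged to an Ecad- cell, but most cells of that fraction were at 0. Means were 4.86 ± 5.32 TPM (SD, n = 100 cells) and 1.69 ± 5.68 TPM (SD, n = 97 cells), a log2 ratio of -1.12 that placed it in the lowest 2.85% of tested genes.

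Levels of Esrp2 above 1 TPM were found in 64.0% of the Ecad+ fraction (53.8% to 73.4%) and 20.6% of the Ecad- fraction (13.1% to 30.0%). This gap of 43.4 percentage points was the widest of the 10 genes, and 2.64% of all tested genes showed a larger fall. Without the low-share cells the shares were 63.6% and 29.8%, but the log2 ratio was -0.69 and no longer past 2-fold. It was -1.07, -1.73 and -0.65 in the library sets.

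The gene lies at chr8:106130319-106136974 on the minus strand, and its exons overlap those of Nfatc3 by 219 bases and of 1810019D21Rik by 119 bases on the plus strand. Nfatc3 had means of 4.19 TPM (Ecad+) and 4.38 TPM (Ecad-), and 1810019D21Rik 16.9 and 23.3 TPM. Neither neighbour was lower in Ecad- cells as Esrp2 was, though reads in the overlaps cannot be told apart without strand.

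Elf3 kept its mean while fewer Ecad- cells carried it. It ranged from 0 to 220 TPM with a median of 17.5 TPM in Ecad+ cells, and from 0 to 222 TPM with a median of 10.3 TPM in Ecad- cells. The tops of the ranges matched, and the difference was in the cells at or near 0. Means were 27.6 ± 32.7 and 26.9 ± 42.9 TPM, a log2 ratio of -0.03, whereas the mean of log2 values, which gives more weight to low cells, was lower by 1.10 in Ecad- cells. Elf3 passed 1 TPM in 93.0% of the Ecad+ fraction (86.1% to 97.1%) and 61.9% of the Ecad- fraction (51.4% to 71.5%). The set values were -0.25, 0.75 and -0.45, and its antisense neighbour Gm26642 shares 6.14% of the 31-base stretches of Elf3.

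Ehf, the second ETS factor, rested on few cells. It ranged from 0 to 108 TPM in Ecad+ cells and from 0 to 358 TPM in Ecad- cells, with medians of 0.0602 TPM and 0. The 10 highest cells held 72.3% of the Ecad+ sum and 94.5% of the Ecad- sum. The mean was higher in Ecad- cells (11.0 against 7.66 TPM, log2 ratio 0.47), yet fewer of these cells were above 1 TPM (18 of 97 against 37 of 100). With a 10% trimmed mean the log2 ratio was -0.37, so the sign of the mean difference hung on the highest cells.

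Grhl2 was above 1 TPM in 1 cell of each fraction, at 4.12 TPM in Ecad+ and 7.00 TPM in Ecad-. The related Esrp1, Grhl3 and Grhl1 were looked at after their values were seen. Esrp1 was above 1 TPM in no Ecad+ cell and in 4 Ecad- cells, and Grhl3 was listed at 0 in every cell. Grhl1 was found more often than Grhl2, above 1 TPM in 13 Ecad+ and 7 Ecad- cells, but did not pass the floor. Of the paralogs Esrp1 and Esrp2, the second had the higher mean level in both fractions.

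**Figure D3:**
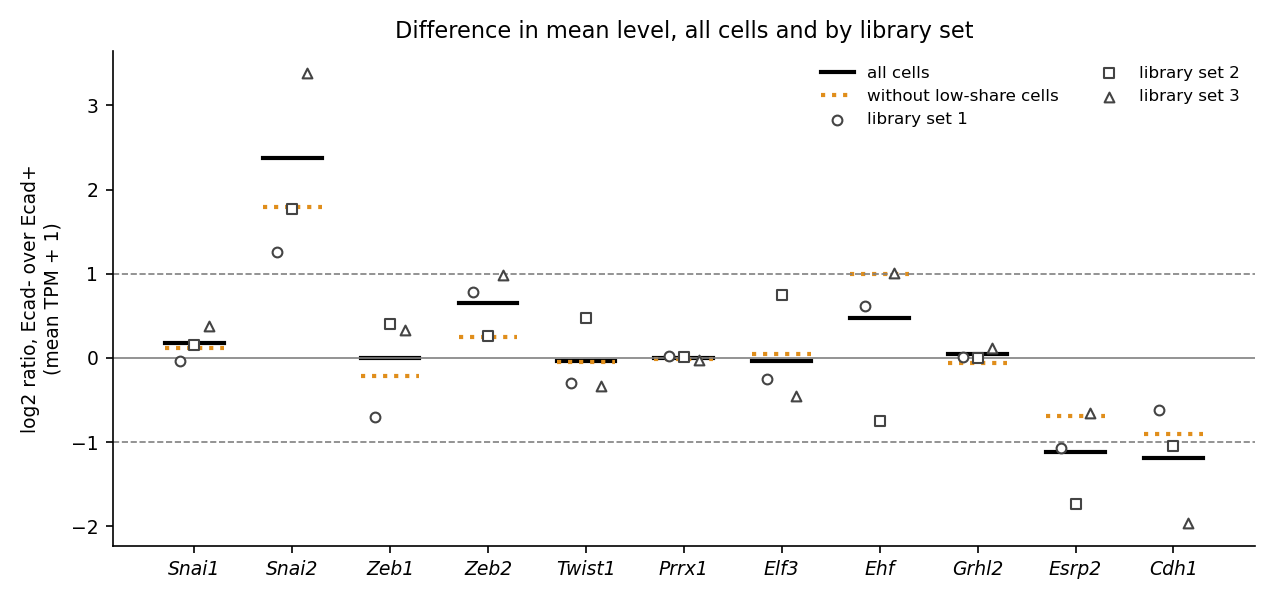
The vertical axis gives the log2 ratio of the Ecad- over the Ecad+ mean (each plus 1 TPM) for each gene, with black bars for all cells, dotted bars without low-share cells and open symbols for the 3 library sets. Dashed lines mark 2-fold, and Snai2 lies above the upper line in all 3 sets while Zeb1, Twist1, Elf3 and Ehf take both signs.

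Taken as shares of cells above 1 TPM, 3 of the 10 genes were lower by 20 percentage points or more in Ecad- cells, namely Esrp2 by 43.4, Elf3 by 31.1 and Twist1 by 29.4 points. The 20-point limit was chosen after values were seen. All 3 are among the 7 members above the floor, since Snai1, Prrx1 and Grhl2 were too rare in Ecad+ cells to fall as far. The share was lower by as much in 30.2% of all tested genes and higher by as much in 1.05%, and the median gene was lower by 12.4 points. A larger fall than that of Elf3 was seen in 11.5% of tested genes, and larger than that of Twist1 in 13.5%, so both sat in a decline shared by many genes. Without the low-share cells the same 3 genes stayed past 20 points, at falls of 33.8, 22.8 and 20.4 points, against 29.5% of tested genes. Larger falls were then seen in 6.16% (Esrp2), 23.0% (Elf3) and 28.7% (Twist1) of tested genes. The share of Snai2 was higher by 11.5 points with all cells, and 96.6% of tested genes had a value below that. It was lower by 0.532 points without the low-share cells, with 87.9% of genes below it and a median of all genes that was lower by 12.8 points.

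E-cadherin transcript and the 10 genes were then compared cell by cell within each fraction. Spearman's rho with Cdh1 is given as a description over cells that share library sets and depth, with no test. In Ecad+ cells (n = 100) it lay between -0.16 (Prrx1) and 0.17 (Ehf) for all 10 genes, all weak values in sparse data. In Ecad- cells (n = 97) the highest value was that of Esrp2, at 0.34, and Elf3 (0.22) and Twist1 (0.20) came next. The E-box repressors had values near 0 in Ecad- cells: -0.04 for Snai2, 0.06 for Zeb1, -0.03 for Zeb2 and 0.02 for Snai1.

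Of the 7 members above the floor, Esrp2 alone had a rho with Cdh1 of 0.3 or more in size in Ecad- cells, a size chosen after values were seen. Such values were found for 5.11% of all other tested genes, and 2.54% of them had a higher rho than Esrp2. It was 0.33 without the low-share cells and 0.27 once the number of genes above 0 and the mitochondrial share were held constant. By library set it was 0.25, 0.05 and 0.65, so set 3 carried most of it. The rho of Elf3 was 0.32 without the low-share cells, where 9.06% of tested genes passed 0.3, and 0.45, 0.14 and 0.16 by set, so in set 1 it was above that of Esrp2. The cells above 1 TPM show the pattern in counts, over ranges of Cdh1 that were also chosen after values were seen. Esrp2 was above 1 TPM in 0 of 19 Ecad- cells with Cdh1 at 0, which allows a share of up to 15.8% by the limit of 3 counts and 17.6% by the exact interval. It was above 1 TPM in 3 of 26 Ecad- cells with Cdh1 above 0 and up to 10 TPM, and in 17 of 52 with Cdh1 above 10 TPM. Their median gene numbers were 8415, 8298.5 and 8844.5, and low-share cells made up 10 of the 19, 10 of the 26 and 20 of the 52. Of the 20 Ecad- cells with Esrp2 above 1 TPM, 17 were among the 57 that are not low-share. The rho of Esrp2 with the number of genes above 0 was 0.31 in Ecad- cells. The part of gene number and low-share cells in these counts was not tested.

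Snai2 did not sort with Cdh1 in the same way. It was above 1 TPM in 8 of the 19 Ecad- cells with Cdh1 at 0, in 13 of 26 with low Cdh1 and in 27 of 52 with Cdh1 above 10 TPM. Zeb1 was above 1 TPM in 11, 12 and 30 of these cells, and Twist1 in 7, 13 and 31. The exact intervals of the shares overlap for each of the 3 inducers. In Ecad+ cells the rho of Snai2 with Cdh1 was -0.11 over all cells, and -0.33, -0.02 and -0.45 within the library sets.

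**Figure D4:**
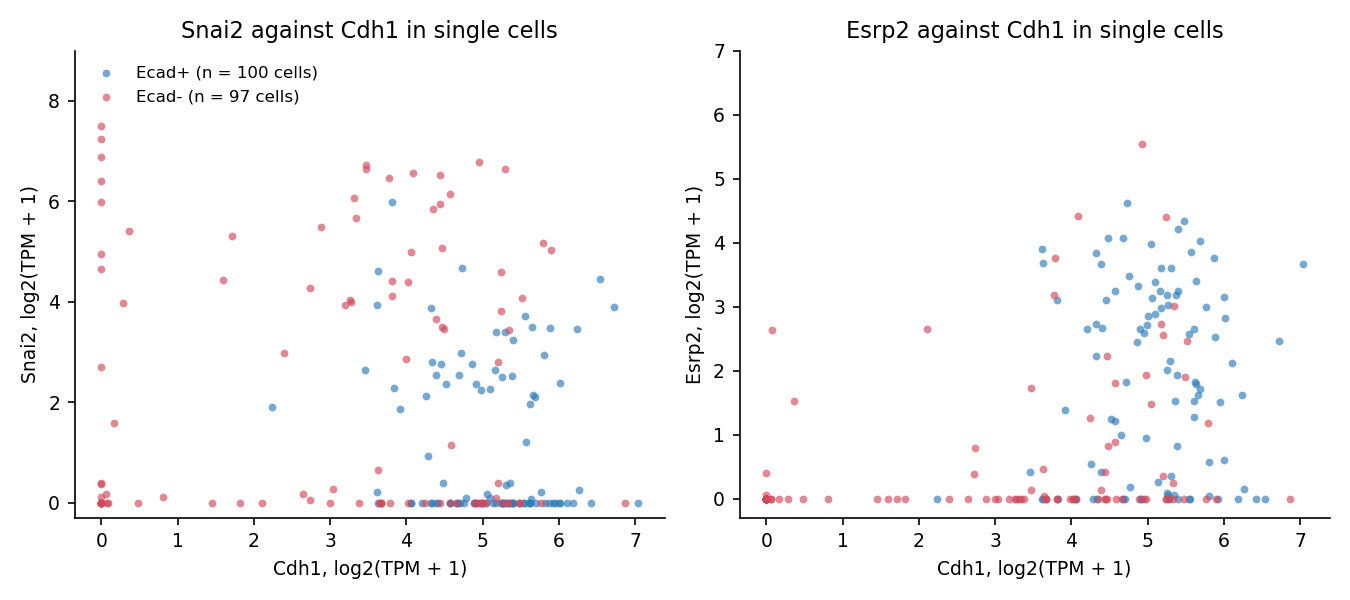
Each point is 1 cell, with Cdh1 on the horizontal and Snai2 (left) or Esrp2 (right) on the vertical axis, all as log2(TPM + 1), in Ecad+ (blue) and Ecad- (red) cells. Snai2 above 1 TPM occurs along the whole Cdh1 axis in Ecad- cells, including 8 of 19 cells with Cdh1 at 0, whereas none of these 19 cells is above 1 TPM for Esrp2.

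Factors of both kinds were found together in single cells. At least 1 of the 6 inducers and at least 1 of the 4 epithelial factors were above 1 TPM in 94 of the 100 Ecad+ and 59 of the 97 Ecad- cells. Cells with none of the epithelial factors numbered 1 Ecad+ and 29 Ecad-, and cells with none of the inducers 5 and 11. Snai2 above 1 TPM without Esrp2 was found in 13 Ecad+ and 39 Ecad- cells, and both together in 25 and 9 cells. Within a fraction these genes did not run against each other to any extent, with a rho of 0.08 (Ecad+) and -0.06 (Ecad-). Among the 57 Ecad- cells that are not low-share, 14 had Snai2 without Esrp2 and 7 had both. None of the epithelial factors was above 1 TPM in 11 of these 57 cells.

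Between members, the largest values in Ecad+ cells were negative: Elf3 with Snai2 (rho -0.38) and Elf3 with Zeb1 (rho -0.32). With genes detected and mitochondrial share held constant they were -0.27 and -0.31. Elf3 itself ran against the number of genes detected in Ecad+ cells (rho -0.45). The values pool the 3 library sets, whose levels also differed. In sets 1, 2 and 3 median Elf3 among Ecad+ libraries was 18.2, 9.44 and 27.8 TPM. Snai2 was above 1 TPM in 28.6%, 64.1% and 18.9% of them, and Zeb1 in 64.3%, 74.4% and 48.6%. The pairs were not compared within sets, and the part of the sets in their values was not tested. In Ecad- cells the same pairs had values of -0.12 and 0.07. There Snai2 ran with Zeb2 at 0.36 and with Zeb1 at 0.32, which were 0.15 and 0.23 after the same adjustment. Elf3 ran with Ehf at 0.29. Zeb1 with Zeb2 was at 0.23 in both fractions, so the repressors did not all run together more in Ecad- cells. Zeb1 with the epithelial factor Esrp2 was at 0.24 in Ecad- cells. After adjustment the Ecad- values of Zeb1 were 0.08 with Zeb2, 0.18 with Esrp2 and 0.21 with Ehf.

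For each member above 0 in 50% or more of the cells of a fraction, the 3 genes most like it were taken by Spearman's rho. Among 6555 candidate genes in Ecad- cells, Snai2 was closest to Slc25a33 (0.60), a mitochondrial pyrimidine nucleotide carrier, Sqstm1 (0.59), the autophagy receptor p62, and Ddit3 (0.58), which encodes the stress-induced factor CHOP. After adjustment these were 0.47, 0.43 and 0.41. Zeb2 was closest to the stress cytokine Gdf15 (0.48), Atp6v1f (0.48), a subunit of the vacuolar proton pump, and the lysosomal cholesterol transporter Npc1 (0.48). After the same adjustment they were lower, at 0.28, 0.32 and 0.29. The 6 neighbours of Snai2 and Zeb2 were themselves higher in mean level in Ecad- cells, by 1.33 (Npc1) to 4.13 (Ddit3) on the log2 scale. Twist1 was closest to the protein disulfide isomerase Pdia6 (0.48), Gm17167 and Pex19. Elf3 had Pxk (0.48) and Jup (0.45) among its closest genes, the last encoding the junction protein plakoglobin. Zeb1 had no neighbour above 0.40, with Cndp2, Mapk14 and Pigk first, and the trace values of Prrx1 were closest to Gm15515, Arpp19 and Bhlhe41 (0.38 to 0.39).

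In Ecad+ cells, with 6710 candidates, the closest neighbours belonged to Elf3: the serine protease Tmprss2 (0.63), the glutathione transferase Gsta4 (0.61) and the sulfotransferase Sult1c2 (0.59). All 3 were lower in mean level in Ecad- cells, by 1.03 (Tmprss2), 1.95 (Gsta4) and 1.34 (Sult1c2) on the log2 scale. Ehf was closest to the chemokine Cxcl5 (0.56), then Ugt1a6a and Plscr4. Esrp2 was closest to Gm17167, Bcar1 and Atp5g2 (all 0.38). Zeb1 was closest to Ppp2r5d, Gars and Mfsd11 (0.44 to 0.45), Zeb2 to Flna, Arl8a and Gapdh (0.42 to 0.43), Twist1 to Fundc1, Spg21 and Zfand1 (0.43 to 0.45), and Prrx1 to A430010J10Rik, Uqcrh and Gm10443 (0.49). Snai2 was above 0 in 49 of 100 Ecad+ cells and so had no neighbours listed there.

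The relation of Snai2 to Ddit3 was followed further, after its value was seen. Mean Ddit3 was 31.1 TPM in the Ecad+ fraction and 562 TPM in the Ecad- fraction. Of 62 Ecad- cells with Ddit3 above 100 TPM, 37 had Snai2 above 10 TPM (59.7%, interval 46.4% to 71.9%). Of the 35 Ecad- cells with less Ddit3, 3 did (8.57%, 1.80% to 23.1%). Ecad+ cells at or below 100 TPM of Ddit3 were at 9 of 96 (9.38%, 4.38% to 17.1%), close to the low-Ddit3 Ecad- cells. Only 4 Ecad+ cells exceeded 100 TPM of Ddit3, and 2 of them were above 10 TPM for Snai2.

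The mitochondrial share moved with the same cells: its rho was -0.45 with Snai2 and -0.63 with Ddit3 in Ecad- cells. Without the low-share cells the counts were 13 of 23 and 3 of 34, and the rho of Snai2 with Ddit3 was 0.55 (n = 57), against 0.58 with all Ecad- cells. Within the 40 low-share cells the rho was 0.24, and 39 of them had Ddit3 above 100 TPM. By library set the rho was 0.68, 0.48 and 0.58. In Ecad+ cells it was -0.15. Other members above the floor also had values with Ddit3 in Ecad- cells: 0.43 for Zeb2, 0.25 for Zeb1 and 0.01 for Twist1. Those of Elf3, Esrp2 and Ehf were -0.08, -0.10 and -0.15. Without the low-share cells Zeb2 was at 0.47 and Zeb1 at 0.37, and Elf3 was at 0.10 and Esrp2 at 0.003. Within the low-share cells Zeb2 was at 0.13 and Zeb1 at 0.03. With genes detected and mitochondrial share held constant, Zeb2 was at 0.21 and Zeb1 at 0.16 in Ecad- cells. Zeb1 had the same adjusted value, 0.16, in Ecad+ cells.

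**Figure D5:**
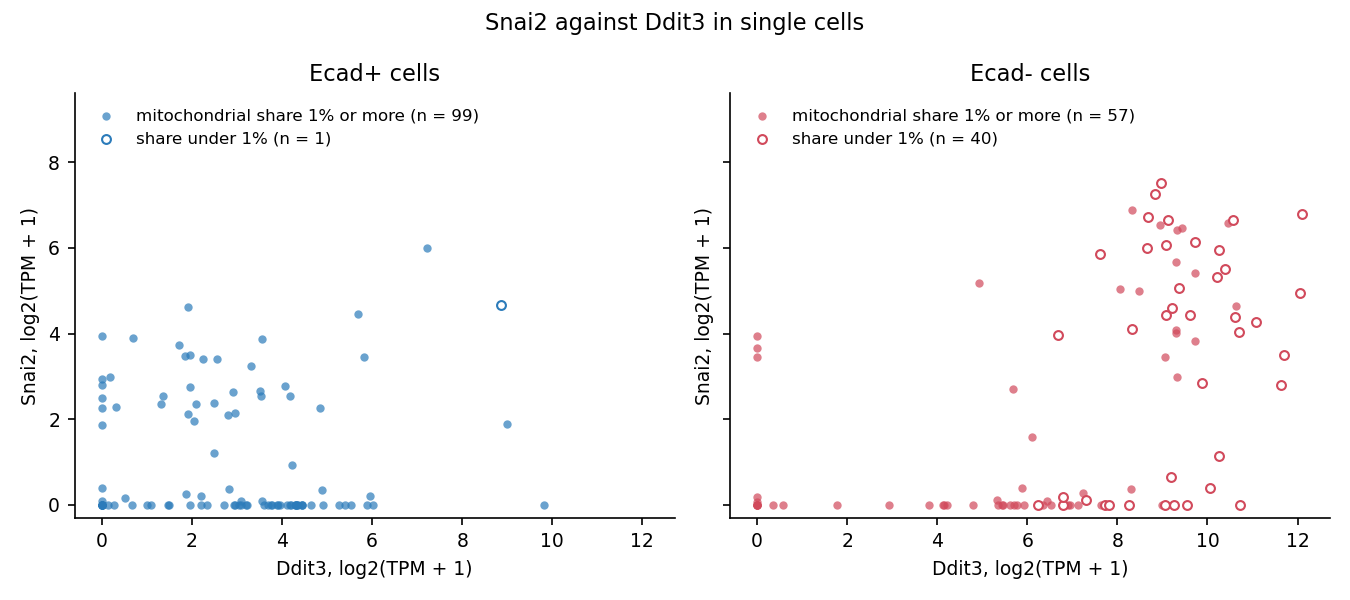
Each point is 1 cell, with Ddit3 on the horizontal and Snai2 on the vertical axis, both as log2(TPM + 1), for Ecad+ (left) and Ecad- (right) cells, and open circles are low-share cells. Ecad- cells with high Snai2 lie to the right, 37 of the 40 above 10 TPM having Ddit3 above 100 TPM, and filled and open points share this region.

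Related genes were read from lists that were chosen with earlier results known, by their counts past 2-fold. Of 19 other transition factors above the floor, 4 were lower in Ecad- cells and 1 was higher, with a median log2 ratio of 0.02 against 0.27 over all genes. Counts in these lists stand beside the 13.4% of all tested genes that were higher and the 3.86% that were lower. The lower ones were the homeobox gene Prrx2 (-1.77), the SNAIL family gene Snai3 (-1.75) and the helix-loop-helix inhibitors Id1 (-1.55) and Id3 (-1.19), and the higher one was the E-protein Tcf4 (1.09). Snai3 passed 1 TPM in 42 of 100 Ecad+ and 5 of 97 Ecad- cells, so within the SNAIL family Snai2 and Snai3 differed in opposite directions between the fractions. Without the low-share cells their ratios were 1.79 and -1.57, and 2 of the 4 lower genes stayed past 2-fold, Id1 (-0.98) and Id3 (-0.99) falling just short. Prrx2 had means of 26.4 TPM (Ecad+) and 7.03 TPM (Ecad-), where its paralog Prrx1 stayed under 0.2 TPM.

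Of 11 other epithelial factors above the floor, none passed 2-fold, and their median of 0.26 was close to that of all genes. Elf2 (0.50), Elf1 (0.45) and Klf4 (0.37) had the highest ratios. Of 18 corepressors and chromatin enzymes that SNAIL and ZEB proteins recruit, 1 was lower, the DNA methyltransferase Dnmt1 (-1.52), and none higher, with a median of -0.05. Ajuba, a SNAIL-binding adaptor, had a ratio of -0.80, Eed 0.70 and Kdm1a 0.62. Of 20 genes for the turnover of these factors, 3 were higher and none lower: the ubiquitin ligases Mdm2 (1.76) and Fbxo11 (1.13) and the kinase Lats2 (1.30), with a median of 0.23 and Cops2 at 0.93. That is near the rate of all genes, and without the low-share cells Lats2 was at 0.31 and Siah1b was lower (-1.31), so 2 were higher and 1 lower. Of 17 upstream signalling genes, Notch1 (-1.03) was lower and none was higher, with a median of 0.04, Hif1a at 0.83, Rela at 0.69 and Egfr at -0.53.

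Genes at the output of these factors were read in the same way. Of 27 epithelial effector genes above the floor, 7 were lower and none higher, with a median of -0.62, led by the claudin Cldn7 (-2.31), the keratins Krt7 (means 650 and 162 TPM) and Krt19 (-1.63) and Cdh1 itself (-1.19). The count of 7 includes Cdh1, the gene of the sorted protein, whose direction is tied to the sort. Of 10 mesenchymal effectors, none was lower and 1 was higher, the focal adhesion gene Zyx (1.06, and 0.65 without the low-share cells), with a median of -0.19. Vim, the intermediate filament vimentin, had means of 454 TPM (Ecad+) and 265 TPM (Ecad-), a ratio of -0.78, Fn1 had a ratio of -0.78 and Itga5 0.67. Of 9 splicing regulators known to act with or against ESRP proteins, 3 were higher, Ptbp2 (1.57), Qk (1.09) and Mbnl2 (1.04), with a median of 0.64 and Celf1 at 0.81. Without the low-share cells 4 epithelial effectors and 1 splicing regulator, Ptbp2 at 1.52, were past 2-fold. Those 4 were Cldn7 (-1.71), Krt7 (-1.46), Marveld3 (-1.27) and Lamb3 (-1.26), while Krt19 (-0.99) and Cdh1 (-0.91) fell short. Of 6 stress genes, 4 were higher: Ddit3 (4.13), Trib3 (2.61), Atf4 (2.22) and Hspa5 (1.05), with a median of 1.64.

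Most markers of other cell types were at or near 0. None of 10 fibroblast markers passed the floor, their summed level ran from 0 to 5.03 TPM with a median of 0.118 in the Ecad+ fraction and from 0 to 27.4 TPM with a median of 0.103 in the Ecad- fraction, and Lum, Col3a1 and Thy1 were at 0 in every cell. Of 6 immune markers found in the table only Cd68 passed (2.08), with Ptprc at 0 throughout, and of 5 endothelial markers only Vwf (1.97), with means of 0.252 and 3.90 TPM and a ratio of 0.59 without the low-share cells, where no endothelial marker passed, and with Pecam1 above 1 TPM in 0 Ecad+ and 3 Ecad- cells. Summed levels reached 126 and 370 TPM for the immune markers and 1.11 and 67.7 TPM for the endothelial markers in Ecad+ and Ecad- cells. Of 7 acinar and endocrine markers only Prss2 passed (-0.14), and 4 were at 0 in every cell, with sums up to 24.2 and 38.7 TPM. All 7 ductal markers passed, with 3 lower in Ecad- cells (Krt7, Krt19 and Krt8 at -1.07), Sox9 at 0.71 and a median of -0.57. The part of Cd68 and Vwf in the results on the 10 genes was not tested.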

How the data were processed

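The authors deposited 1 table of log2 values for 28987 genes in 202 libraries. Back-transformed, the libraries summed to between 933711 and 987134, so values were read as log2(TPM + 1). Single cells were captured on a Fluidigm C1, amplified with SMARTer and made into Nextera XT libraries, per the labels' protocols. FastQC 0.11.5, kallisto and mm10 are listed in the submitters' processing notes. The transcript index is not given in the sources used here, nor is a filter on cells. TPM keeps no read depth, so the counting error of a level is unknown.

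Library pairs with a Pearson correlation over 0.97 across genes (5 pairs, 0.984 to 0.994, next 0.939) were averaged as 1 cell. Library sets held 28, 39 and 37 Ecad+ and 33, 32 and 33 Ecad- libraries, and within-set values used single libraries. What a set stands for is not stated. Mean TPM per fraction was compared with a pseudocount of 1, for genes reaching 1 TPM on average and above 0 in at least 10% of cells. The calculation was tested on simulated data, made without zeros for genes of high level found in nearly all cells. None of the 10 members is such a gene, so that test does not cover their ratios. Shares have exact Clopper-Pearson 95% intervals. Python 3.11.15, numpy 2.4.6, scipy 1.17.1, pandas 2.3.3, matplotlib 3.10.9 and biopython 1.88 were used.

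The members and lists were chosen with earlier results of these data known. Named genes are the 10 members, Cdh1, Ddit3, Vim, the 3 nearest genes of each member by rho (mean of at least 5 TPM and above 0 in 50% or more of that fraction's cells), and up to 4 genes per list with the largest ratio. Esrp1, Grhl1, Grhl3, Marveld3, Lamb3, markers at 0, Pecam1, Ptprc, Tcf4, Siah1b and overlapping genes were named after their values were seen. Some genes that the rule takes are not reported here. Coordinates and sequences come from GENCODE M21 and RefSeq windows, both GRCm38. Alternatives covered the summary, scaling, pseudocount, floor, cells entered and library sets.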

Additional observations from a re-analysis of the deposited data

How the results depend on the processing

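The count of members past 2-fold, 2 with all cells, was 1 with a pseudocount of 10, without low-share cells, without the 10% of cells with the fewest genes, without library set 2 and with a floor of 5 TPM. It was 3 on the mean of log values, where Elf3 joined, and 3 with a pseudocount of 0.1, where Zeb2 did at 1.20. Snai2 was the gene that stayed each time, with log2 ratios from 1.26 to 2.64 over 13 alternatives, and Esrp2 ranged from -1.63 to -0.35. With the floor of 5 TPM only 3 members were tested. Twist1, Elf3, Ehf and Zeb1 took the other sign under 2, 3, 2 and 4 alternatives. On the mean of log values the median of all genes was -0.21 in place of 0.27, and Elf3 was lower by 1.10. The count of members whose share of cells above 0 was lower by 20 points was 3, and 0 at a threshold of 10 TPM. The count of members with a rho with Cdh1 of 0.3 or more in size in Ecad- cells was 1, and it was 0 with Pearson's r of log values, 0 with the partial rho, 0 within library set 2 and 2 without low-share cells. The cause of these differences was not tested. The threshold of 1 TPM without low-share cells was added after seeing the data and gave 3. No paired analysis was possible because the replicate numbers in the labels only name libraries of single cells and pair nothing across the fractions. Library sets, which hold both fractions, are compared by their own ratios in the report. The labels name no separate cultures, so the spread between cultures was not measured, and TPM gives no depth with which to tell a silent gene from one missed in a cell.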
